A study of Mus musculus with 9 samples.

Results

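The 10 mouse genes that detoxify ammonia through the urea cycle, hydrolyse arginine or turn it into nitric oxide were followed across the livers of concanavalin A (Con A) hepatitis: Nos2, Nos3, Gch1, Arg1, Arg2, Ass1, Asl, Cps1, Otc and Nags. They were chosen by name, as the enzymes of this pathway, and each symbol was matched to its Ensembl gene in the GRCm38 annotation, which gave 10 of the 56719 genes counted. Messenger RNA was sequenced in 9 libraries from livers of C57BL/6J mice, 3 in each group. Each library is called a liver here, but the labels give only a replicate number. FMT-Con A mice were gavaged for 4 weeks with faecal suspension from mice of a Con A-induced autoimmune hepatitis (AIH) model, and on the day of collection received Con A at 10 mg/kg by tail vein. Con A mice were given PBS over the same 4 weeks and then the same injection. WT mice were given PBS throughout. The labels describe the mice as male in one field and female in another, give no age, and do not state how long after the injection the livers were taken. Mice given faecal material without Con A, or faeces of untreated donors, were not analysed here, so an effect of the transplant on the liver cannot be told apart from an effect on the response to Con A.

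Con A is a plant lectin that activates T cells in the mouse and injures the liver through the cytokines they release. In hepatocytes, ammonia and bicarbonate enter the urea cycle through carbamoyl phosphate, and the cycle ends when arginase 1 splits arginine into urea and ornithine. The same arginine is the substrate of the nitric oxide synthases, which need the cofactor tetrahydrobiopterin (BH4) and release citrulline, which argininosuccinate synthase and lyase can turn back into arginine. The urea cycle enzymes are hepatocyte genes, richest in the periportal zone, whereas inducible nitric oxide synthase is a classical gene of cytokine-exposed macrophages and hepatocytes.

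Promoters were looked at because Nos2, Gch1 and the arginases are textbook targets of cytokine-driven transcription factors, while the cycle enzymes are under hepatocyte control. Promoter windows taken from RefSeq (GRCm38.p6), 250 bases before to 50 bases after the start, were matched for 4 of the 10 genes, Gch1, Ass1, Otc and Nags. Those of Nos2, Nos3, Arg1, Arg2, Asl and Cps1 were not used here. The windows of Gch1 (chr14:47189364-47189663, minus strand) and Otc (chrX:10252055-10252354, plus strand) are shown 5′ to 3′ as a cytokine-responsive gene beside a hepatocyte gene, with the match to the NF-kappaB consensus in capitals.
Gch1: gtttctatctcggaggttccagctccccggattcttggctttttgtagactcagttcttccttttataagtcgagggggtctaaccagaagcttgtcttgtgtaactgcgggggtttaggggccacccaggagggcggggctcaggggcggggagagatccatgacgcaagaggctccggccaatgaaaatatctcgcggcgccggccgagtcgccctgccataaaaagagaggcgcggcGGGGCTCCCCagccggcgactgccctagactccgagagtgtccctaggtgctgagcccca
Otc: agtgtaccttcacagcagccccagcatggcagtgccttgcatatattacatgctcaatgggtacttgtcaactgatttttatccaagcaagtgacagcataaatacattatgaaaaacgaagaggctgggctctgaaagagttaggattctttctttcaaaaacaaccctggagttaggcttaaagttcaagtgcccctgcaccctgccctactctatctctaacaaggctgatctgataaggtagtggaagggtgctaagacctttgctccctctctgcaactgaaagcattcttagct
The Gch1 window held 1 match to the NF-kappaB consensus, at positions -10 to -1 from the start, and none of the 3 other motifs searched on both strands: the STAT palindrome TTCNNNGAA, the C/EBP core TTGCNNAA and an interferon response core. Otc, Ass1 and Nags held no match to any of the 4 motifs in their windows. Among the 27025 promoters of the same length, 8.18% held the NF-kappaB consensus, 8.47% the STAT palindrome, 3.49% the interferon response core and 10.8% the C/EBP core. The Gch1 window was 60.3% GC, against 44.3% for Otc, 74.0% for Ass1 and 57.7% for Nags.

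Libraries held 21580482 to 29466806 counts in FMT-Con A livers, 21772376 to 25890947 in Con A livers and 20513051 to 22770276 in WT livers, and all 10 genes passed the filter on low counts. The livers did not spread evenly within groups. FMT-Con A 1 and FMT-Con A 3 were the closest pair of all 9 libraries, and their summed skeletal muscle markers reached 14800 and 14500 CPM (counts scaled to library size), beside 1520 CPM in FMT-Con A 2. Those 12 muscle genes summed to 2.72, 6.6 and 1650 CPM in Con A livers and to at most 8.61 CPM in WT livers. Pairs of libraries were compared by the median squared difference of gene counts, as a multiple of that from sampling of reads alone. It was 2.71 between FMT-Con A 1 and 3, 13 between FMT-Con A 1 and 2, and 12.7 between Con A 2 and FMT-Con A 2. Folds of the 10 genes that rest on these libraries are therefore also given without them. Summed hepatocyte markers other than Cps1 were 29400, 32900 and 28700 CPM in FMT-Con A livers, 56200, 50200 and 47900 CPM in Con A livers, and 59800, 56200 and 66700 CPM in WT livers, so the liver label was met in every library and the sum was lower in FMT-Con A livers. Alb was its largest member, and the markers did not move together. Tdo2 was at 580, 1340 and 598 CPM in FMT-Con A livers and 379 to 471 CPM in WT livers. Of the 8 hepatocyte markers, Cps1 included, 3 fell and none rose in FMT-Con A against Con A, where 10.6% of all genes were called lower. Against WT, 5 fell and 1 rose in FMT-Con A livers, where 27.9% were called lower and 31.2% higher. In bulk tissue, fewer hepatocytes and less of these RNAs per hepatocyte cannot be told apart.

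**Figure D1:**
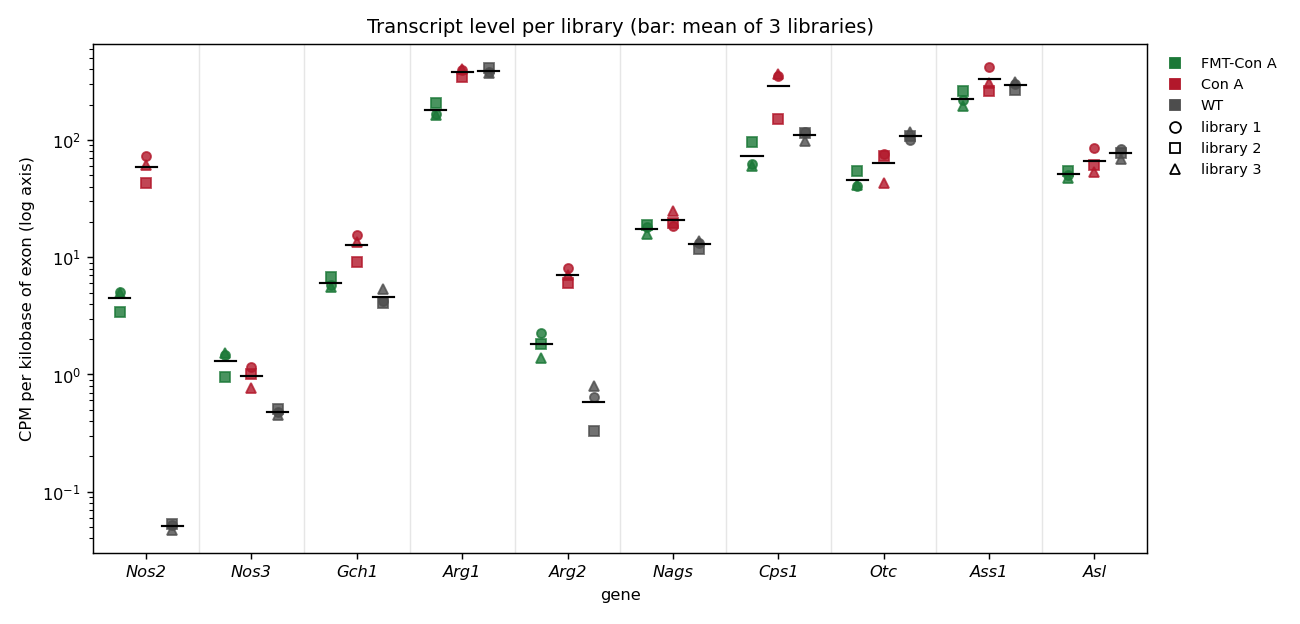
Levels of the 10 genes in each of the 9 livers, in CPM per kilobase of exon on a log axis, with FMT-Con A, Con A and WT from left to right, 1 point per library and a line at the mean of 3. Nos2 spans the widest range, with means of 4.48, 59.1 and 0.0508 in FMT-Con A, Con A and WT livers, while Arg1 sits lower in the FMT-Con A livers than in the 6 other livers.

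After Con A alone, the genes of nitric oxide synthesis, Gch1 and the minor arginase Arg2 rose, whereas the cycle enzymes went different ways. Of the 10 genes, 6 rose (Nos2, Nos3, Gch1, Arg2, Cps1 and Nags), Otc fell, and Arg1, Ass1 and Asl did not pass the test (edgeR's quasi-likelihood test, Benjamini-Hochberg adjusted over 17704 genes, threshold 0.05). That count of 7 stands against a background in which 63.4% of all genes tested were called, and 7 of the 10 genes had groups that did not overlap, against 69.8% of all genes, so the number of calls was near the background. The median log2 fold change of the 10 was 0.86, against 0.01 over all genes. In FMT-Con A livers set against Con A livers, 5 of the 10 fell (Nos2, Gch1, Arg1, Arg2 and Cps1) and none rose, against 16.8% of all genes called in either direction, 6.26% higher and 10.6% lower. At an unadjusted p under 0.05, and by DESeq2, the count of rises was likewise 0. Groups did not overlap for 6 of the 10, against 32.7% of all genes, and the median log2 fold change was -0.81, against -0.01 over all genes. In FMT-Con A livers set against WT, 4 rose (Nos2, Nos3, Arg2 and Nags) and 3 fell (Arg1, Asl and Otc), against 59.0% of all genes called, 31.2% higher and 27.9% lower, and the 10 genes did not overlap between these groups, as was so of 69.1% of all genes. Without FMT-Con A 1 and 3, the folds against WT were 6.03 for Nos2 (edgeR adjusted p = 1.32e-05), 0.99 for Nos3 (0.0429), -0.92 for Arg1 (0.0139), 1.63 for Arg2 (0.0161) and -1.01 for Otc (0.0414), while -0.5 for Asl (0.2) and 0.53 for Nags (0.0767) did not pass. In the same fit, those against Con A were -0.24 for Otc (0.727), -0.33 for Ass1 (0.587), -0.29 for Asl (0.627) and -0.17 for Nags (0.715). Any 2 of these comparisons share a group of livers, so each gene's own values are given side by side.

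**Figure D2:**
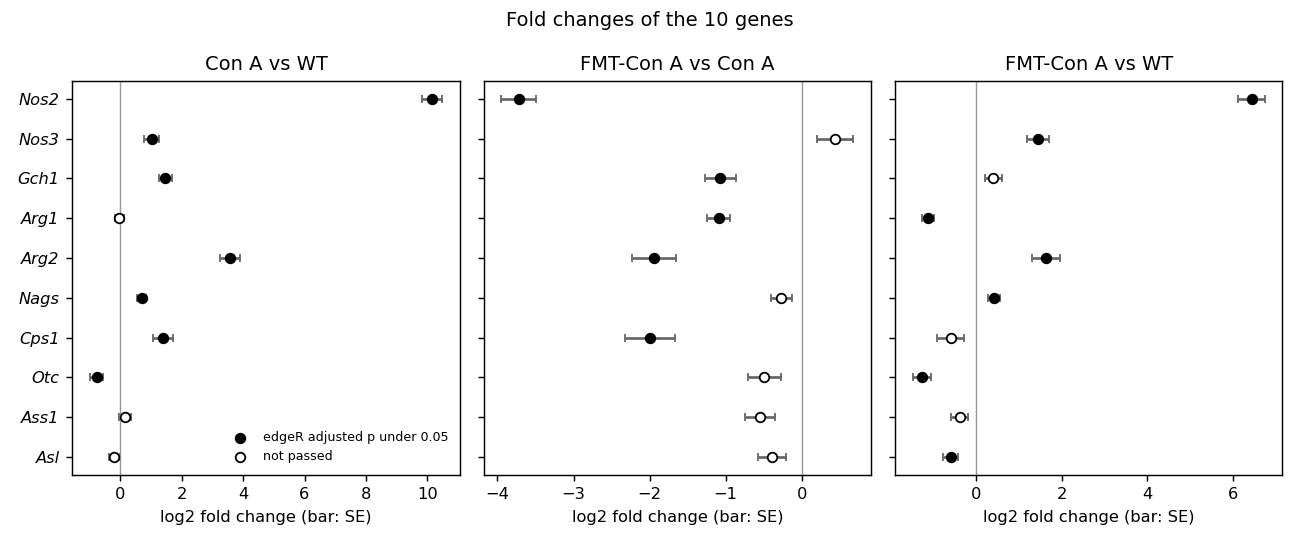
Log2 fold changes of the 10 genes in the 3 comparisons, with bars of 1 standard error and filled points where the edgeR adjusted p is under 0.05. Nos2 has the longest fold in every comparison, at 10.15 in Con A over WT, -3.72 in FMT-Con A over Con A and 6.43 in FMT-Con A over WT.

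Nos2 encodes inducible nitric oxide synthase, the high-output enzyme that makes nitric oxide and citrulline from arginine (ENSMUSG00000020826, chr11:78920787-78960254, plus strand). Its level was 22.2, 15 and 22.0 CPM in FMT-Con A livers, 320, 192 and 271 CPM in Con A livers, and 0.229, 0.234 and 0.209 CPM in WT livers, where each library held only 5 counts. Every Con A liver was above every FMT-Con A liver, and every FMT-Con A liver was above every WT liver. Against WT, Nos2 rose by 10.15 on the log2 scale in Con A livers (SE 0.33, edgeR adjusted p = 6.9e-08), and in FMT-Con A livers it rose by 6.43 (SE 0.31, edgeR adjusted p = 4.65e-07). Set directly against Con A, Nos2 fell by 3.72 in FMT-Con A livers (SE 0.23, edgeR adjusted p = 0.000314). With FMT-Con A 1 and 3 both left out, so that the lone FMT-Con A 2 was assumed to vary like the other groups, the fold was -4.12 (edgeR adjusted p = 0.0151), and with both libraries numbered 2 left out it was -3.73 (edgeR adjusted p = 2.23e-05). Without FMT-Con A 1 and 3, Nos2 was the 1 gene of the 10 still called between FMT-Con A and Con A.

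Nos3, the endothelial synthase that supplies vascular nitric oxide at low output (ENSMUSG00000028978, chr5:24364810-24384474, plus strand), moved less. It had 6.09, 3.94 and 6.26 CPM in FMT-Con A livers, 4.77, 4.17 and 3.15 CPM in Con A livers, and 1.97, 2.11 and 1.88 CPM in WT livers. Both Con A-injected groups lay above WT without overlap, and they overlapped each other. Nos3 rose against WT by 1.45 in FMT-Con A livers (SE 0.25, edgeR adjusted p = 0.000801) and by 1.02 in Con A livers (SE 0.25, edgeR adjusted p = 0.0054). Between FMT-Con A and Con A the log2 fold change was 0.44 (SE 0.24, edgeR adjusted p = 0.229), which did not pass, and without FMT-Con A 1 and 3 it was -0.03. Over 8 endothelial markers the sums were 81.2 to 125 CPM in FMT-Con A livers, 117 to 209 CPM in Con A livers and 74 to 93.2 CPM in WT livers. These markers did not move together: 5 rose and 3 fell in Con A against WT, where 32.5% of all genes were called higher and 30.9% lower. Pecam1 was at 32.2, 13.4 and 30.1 CPM in FMT-Con A livers, 15.6 to 29.4 CPM in Con A livers and 5.34 to 7.28 CPM in WT livers. Kdr was at 3.69, 0.522 and 3.43 CPM in FMT-Con A livers, 1.28 to 3.72 CPM in Con A livers and 12.9 to 15.8 CPM in WT livers. The part of these markers in the Nos3 level was not tested. Nos3 shares 294 exon bases with Atg9b and 1040 with Gm15587 on the opposite strand. Atg9b averaged 2.76, 1.99 and 0.0909 CPM in FMT-Con A, Con A and WT livers, and since no strand setting is given for the counting, reads of these genes in the shared bases cannot be told apart.

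Compared per kilobase of exon, Nos2 made up 77.4, 78.1 and 76.7% of the Nos2 and Nos3 transcripts in FMT-Con A livers, 98.4, 97.7 and 98.8% in Con A livers, and 9.82, 9.43 and 9.43% in WT livers. The inducible form was thus the main synthase transcript in every Con A-injected liver and the minor one in every WT liver. Neuronal Nos1 stood at 9.71 ± 7.79 CPM in FMT-Con A livers, 0.472 ± 0.776 in Con A livers and 0.0713 ± 0.0862 in WT livers (SD, n = 3 each). Nos1 is also a gene of skeletal muscle, and its spread went with the muscle marker sums.

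Gch1 encodes GTP cyclohydrolase 1, the rate-limiting enzyme of BH4 synthesis and so of the cofactor the synthases need (ENSMUSG00000037580, chr14:47153895-47189413, minus strand). It reached 36.1, 42.2 and 34.6 CPM in FMT-Con A livers, 96.5, 56.5 and 83.8 CPM in Con A livers, and 26.5, 25.3 and 33.5 CPM in WT livers. The Con A livers were the highest 3 of the 9, with Con A 2 the lowest of them, and FMT-Con A livers lay just above WT. Gch1 rose by 1.47 on the log2 scale in Con A livers against WT (SE 0.2, edgeR adjusted p = 0.000137). In FMT-Con A livers it fell by 1.07 against Con A (SE 0.2, edgeR adjusted p = 0.00958), and against WT its fold of 0.4 did not pass (SE 0.2, edgeR adjusted p = 0.102). The fall did not pass without FMT-Con A 1 (edgeR adjusted p = 0.0514) or without FMT-Con A 1 and 3 together (-0.91, edgeR adjusted p = 0.205). With both libraries numbered 2 left out it was -1.34 (edgeR adjusted p = 0.000799).

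Most other genes of the BH4 pathway did not rise with Gch1 in Con A livers. Of 9 further genes of BH4 synthesis and recycling, 6 fell and none rose in Con A against WT, with a median log2 fold change of -0.87, while 30.9% of all genes tested were called lower. The 6 include Gchfr, the feedback regulator of Gch1 rather than an enzyme of the route. At an unadjusted p under 0.05, 1 of the 9 was higher, Akr1b3, an aldose reductase (log2 fold change 0.69, edgeR adjusted p = 0.0708), and by DESeq2 0 were. Cbr1, a carbonyl reductase, fell to 12 ± 0.705 CPM in Con A livers, against 49.5 ± 5.25 CPM in WT livers (log2 fold change -2.04, edgeR adjusted p = 7.32e-07). Pts, which follows Gch1 in the synthesis route, was at 18 ± 3.01 CPM in Con A livers and 46.7 ± 1.6 CPM in WT livers (-1.37, edgeR adjusted p = 1.44e-05). Pcbd1, which regenerates the cofactor, also fell, by 1.13. In FMT-Con A livers against Con A, 2 of the 9 rose and none fell, where 6.26% of all genes were called higher and 10.6% lower. The 2 were Cbr1, at 21.7 ± 1.19 CPM against 12 ± 0.705 CPM (0.86, edgeR adjusted p = 0.00285), and Akr1b3, at 14.5 ± 5.45 CPM against 6 ± 1.15 CPM (1.27, edgeR adjusted p = 0.0213). Leaving out 1 library at a time left 1 to 3 higher, and 0 were lower by DESeq2 or at an unadjusted p under 0.05. Without FMT-Con A 1 and 3, the livers with the highest muscle marker sums, Akr1b3 was at 0.47 (edgeR adjusted p = 0.482) and Cbr1 at 0.86 (edgeR adjusted p = 0.0698). Against WT, 1 of the 9 rose and 6 fell in FMT-Con A livers, with a median of -0.94, where 31.2% of all genes were called higher and 27.9% lower.

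Arg1, the cytosolic arginase that completes the cycle in hepatocytes (ENSMUSG00000019987, chr10:24915221-24927484, minus strand), had 374, 461 and 364 CPM in FMT-Con A livers, 885, 772 and 897 CPM in Con A livers, and 852, 915 and 839 CPM in WT livers. Con A and WT livers overlapped, and all 3 FMT-Con A livers lay below them. Arg1 fell in FMT-Con A livers by 1.09 on the log2 scale against Con A (SE 0.15, edgeR adjusted p = 0.00337) and by 1.12 against WT (SE 0.15, edgeR adjusted p = 0.000186). Between Con A and WT the fold was -0.03 (SE 0.15, edgeR adjusted p = 0.874), with a sign that turned when Con A 2 was left out (0.03). The fall against Con A was -0.89 without FMT-Con A 1 and 3 (edgeR adjusted p = 0.116) and -1.27 without both libraries numbered 2 (edgeR adjusted p = 0.000525). The hepatocyte marker sum was lower in the same 3 livers, as given above. Alb, albumin, stood at 19300 ± 1260 CPM in FMT-Con A livers and 35400 ± 2290 CPM in Con A livers (log2 fold change -0.88, edgeR adjusted p = 0.0221). Whether hepatocyte content accounts for the lower Arg1 was not tested. Arg1 is also carried by alternatively activated macrophages in the mouse, and the 10 macrophage and monocyte markers summed to 91.6 to 137 CPM in FMT-Con A livers, 138 to 155 CPM in Con A livers and 151 to 225 CPM in WT livers. These markers did not move together. Clec4f was at 14.7 to 38.4 CPM in FMT-Con A livers and 78.7 to 118 CPM in WT livers. Itgam was at 9.82 to 11.9 CPM and 0.366 to 0.92 CPM in the same groups. Of the 10, 3 fell and 1 rose in FMT-Con A against Con A, where 10.6% of all genes were called lower and 6.26% higher. Against WT, 4 fell and 3 rose in FMT-Con A livers, where 27.9% were called lower and 31.2% higher. Their part in Arg1 was not tested.

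Arg2, the mitochondrial arginase found mainly outside hepatocytes (ENSMUSG00000021125, chr12:79130777-79156301, plus strand), behaved differently from Arg1. It had 3.25, 2.61 and 1.98 CPM in FMT-Con A livers, 11.6, 8.54 and 10.0 CPM in Con A livers, and 0.916, 0.468 and 1.13 CPM in WT livers. The 3 groups did not overlap, and FMT-Con A livers lay between the other groups. Against WT, Arg2 rose by 3.57 in Con A livers (SE 0.33, edgeR adjusted p = 1.11e-05) and by 1.63 in FMT-Con A livers (SE 0.32, edgeR adjusted p = 0.00181). It fell by 1.94 in FMT-Con A against Con A livers (SE 0.29, edgeR adjusted p = 0.0048), a fold that was also -1.94 without FMT-Con A 1 and 3 but did not pass there (edgeR adjusted p = 0.0932), and -2.02 without both libraries numbered 2 (edgeR adjusted p = 0.00343). Arg2 shares 285 exon bases with Vti1b on the opposite strand, which averaged 30.4, 32.6 and 17.0 CPM in FMT-Con A, Con A and WT livers, so part of its low count cannot be assigned.

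Per kilobase of exon, Arg2 supplied 1.34, 0.876 and 0.844% of all arginase transcripts in FMT-Con A livers, 2.0, 1.7 and 1.71% in Con A livers, and 0.167, 0.0797 and 0.21% in WT livers. The 3 groups did not overlap, and Arg1 remained nearly all of the arginase transcript everywhere. The share differed by -0.784 percentage points between FMT-Con A and Con A, by 0.868 between FMT-Con A and WT and by 1.65 between Con A and WT. Each had p = 0.1 by a two-sided exact permutation test, the smallest that 3 against 3 can give, so this design cannot reach 0.05.

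The balance of the enzymes that compete for arginine was summed as Nos2 plus Nos3 per 1000 transcripts of Arg1 plus Arg2, all per kilobase of exon. Nos1 was left out of it. It stood at 38.3, 20.9 and 39.5 in FMT-Con A livers, 182, 126 and 152 in Con A livers, and 1.38, 1.37 and 1.33 in WT livers. The order Con A, FMT-Con A, WT held without overlap between any livers of different groups. On the log2 scale the means were -4.98 ± 0.519 in FMT-Con A, -2.72 ± 0.265 in Con A and -9.52 ± 0.026 in WT livers (SD, n = 3 each). The differences were -2.26 for FMT-Con A minus Con A, 4.54 for FMT-Con A minus WT and 6.8 for Con A minus WT, each with p = 0.1 by the same exact permutation test. The ratio counts transcripts and says nothing of enzyme activity.

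**Figure D3:**
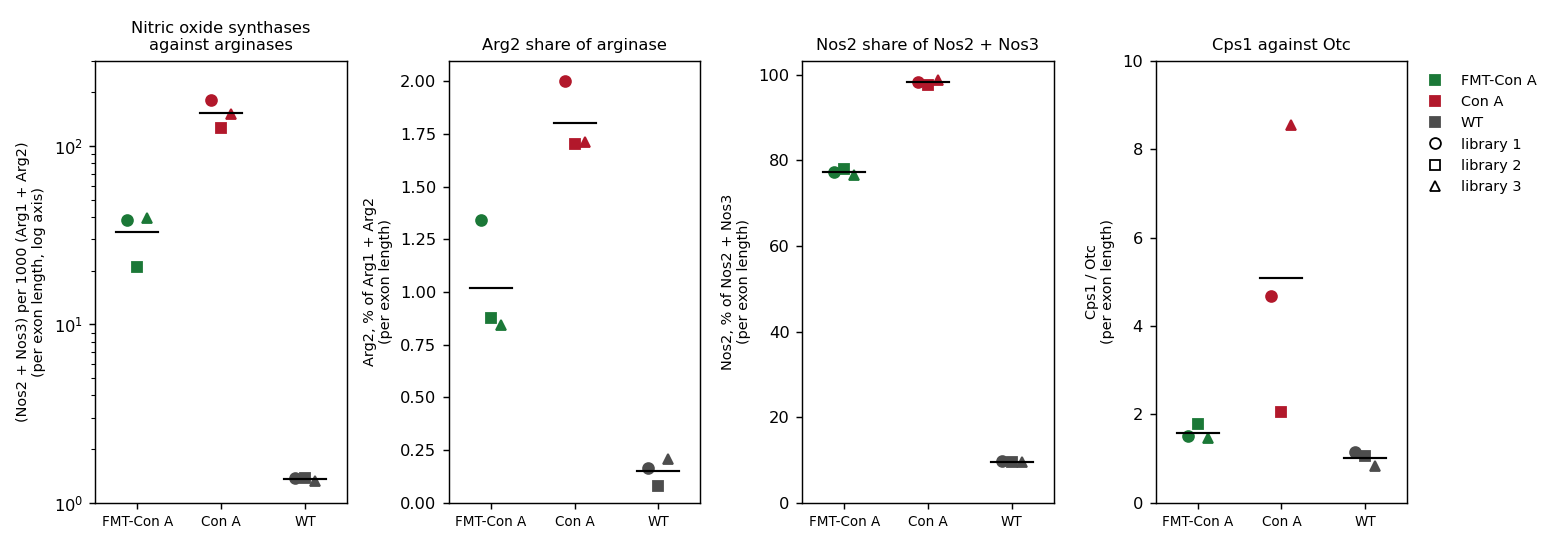
From left to right, Nos2 plus Nos3 transcripts per 1000 arginase transcripts (log axis), the Arg2 percentage of arginase, the Nos2 percentage of Nos2 plus Nos3, and the Cps1 to Otc ratio, all per exon length. Each point is a library (circle 1, square 2, triangle 3) and each line a group mean. The 3 groups do not overlap in any of the 4 measures, and Cps1 to Otc spreads between 2.05 and 8.56 among the Con A livers.

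The mitochondrial entry of the cycle split up under Con A. Cps1, carbamoyl phosphate synthetase 1, fixes ammonia in the rate-limiting step (ENSMUSG00000025991, chr1:67123026-67231259, plus strand). It had 346, 535 and 333 CPM in FMT-Con A livers, 1960, 837 and 2030 CPM in Con A livers, and 652, 639 and 540 CPM in WT livers. All Con A livers were above all WT livers, with Con A 2 far below the other Con A livers, and all FMT-Con A livers were below WT. Cps1 rose by 1.4 in Con A livers against WT (SE 0.33, edgeR adjusted p = 0.00385) and fell by 1.99 in FMT-Con A livers against Con A (SE 0.33, edgeR adjusted p = 0.00651). Against WT, its fold of -0.59 in FMT-Con A livers did not pass over all 9 libraries (SE 0.32, edgeR adjusted p = 0.135). It passed when both libraries numbered 2 were left out (-0.84, edgeR adjusted p = 0.000755), a fit in which the fall against Con A was -2.55 (edgeR adjusted p = 0.000144). Over all alternative fits the fold against WT ran from -0.84 to -0.19. FMT-Con A 2, at 535 CPM, lay just below WT 3, at 540 CPM. Without FMT-Con A 1 and 3 the fold against Con A was -1.59 and did not pass (edgeR adjusted p = 0.171).

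Otc, ornithine transcarbamylase, joins carbamoyl phosphate to ornithine to make citrulline (ENSMUSG00000031173, chrX:10252305-10321024, plus strand). It had 174, 229 and 174 CPM in FMT-Con A livers, 321, 311 and 181 CPM in Con A livers, and 430, 460 and 497 CPM in WT livers. Every WT liver was above every injected liver, and Con A 3, at 181 CPM, lay among the FMT-Con A livers. Otc fell against WT by 1.26 in FMT-Con A livers (SE 0.22, edgeR adjusted p = 0.000977) and by 0.77 in Con A livers (SE 0.22, edgeR adjusted p = 0.0121). Its fold of -0.49 between FMT-Con A and Con A did not pass (SE 0.22, edgeR adjusted p = 0.149), but did when Con A 3 was left out (-0.71, edgeR adjusted p = 0.0272).

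Nags makes N-acetylglutamate, the obligate activator of carbamoyl phosphate synthetase 1 (ENSMUSG00000048217, chr11:102145513-102149477, plus strand). Its level was 51.2, 53.0 and 44.5 CPM in FMT-Con A livers, 52.1, 56.0 and 70.6 CPM in Con A livers, and 37.4, 33.5 and 39.2 CPM in WT livers. All 6 injected livers lay above all WT livers. Nags rose by 0.7 in Con A livers against WT (SE 0.14, edgeR adjusted p = 0.0016) and by 0.43 in FMT-Con A livers against WT (SE 0.14, edgeR adjusted p = 0.0221). That call of FMT-Con A against WT did not pass when either WT 1, WT 2, FMT-Con A 1 or FMT-Con A 2 was left out. Between FMT-Con A and Con A the fold was -0.27 (SE 0.14, edgeR adjusted p = 0.205). Nags shares 443 exon bases with the antisense gene Gm11586, which was at most 0.458 CPM in any library.

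Cps1 and Otc act on consecutive steps in the same organelle, and their transcripts moved in opposite directions in Con A livers. Per kilobase of exon, the Cps1 to Otc ratio was 1.52, 1.78 and 1.46 in FMT-Con A livers, 4.67, 2.05 and 8.56 in Con A livers, and 1.16, 1.06 and 0.83 in WT livers. This ratio was chosen after the values were seen and is given without a test. Con A 3 combined the highest Cps1 of the 9 livers with an Otc level inside the FMT-Con A range, and Con A 2 was the liver closest to the other groups.

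Ass1 and Asl carry citrulline to arginine in the cytosol, for the cycle in hepatocytes and for citrulline recycling to nitric oxide elsewhere. Ass1, argininosuccinate synthase (ENSMUSG00000076441, chr2:31470207-31520672, plus strand), had 534, 629 and 468 CPM in FMT-Con A livers, 1010, 632 and 737 CPM in Con A livers, and 728, 641 and 760 CPM in WT livers. FMT-Con A livers were the lowest 3, with FMT-Con A 2 and Con A 2 almost level, and no comparison passed. The log2 folds were -0.55 against Con A (SE 0.2, edgeR adjusted p = 0.0857) and -0.38 against WT (SE 0.2, edgeR adjusted p = 0.123) in FMT-Con A livers, and 0.16 in Con A livers against WT (SE 0.2, edgeR adjusted p = 0.496). Leaving out Con A 2 brought the fold against Con A past the threshold (edgeR adjusted p = 0.0425), and leaving out Con A 1 turned the sign of Con A against WT (-0.05, edgeR adjusted p = 0.836).

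Asl, argininosuccinate lyase (ENSMUSG00000025533, chr5:130011258-130029247, minus strand), had 245, 263 and 229 CPM in FMT-Con A livers, 412, 297 and 258 CPM in Con A livers, and 408, 372 and 334 CPM in WT livers. FMT-Con A livers overlapped Con A 3 and lay below all WT livers. Asl fell by 0.59 in FMT-Con A livers against WT (SE 0.18, edgeR adjusted p = 0.019), a call that did not pass without WT 1, FMT-Con A 1 or FMT-Con A 3. The folds of -0.39 for FMT-Con A against Con A (SE 0.18, edgeR adjusted p = 0.165) and -0.2 for Con A against WT (SE 0.18, edgeR adjusted p = 0.354) did not pass.

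Added up per kilobase of exon, the 5 cycle enzymes Cps1, Otc, Ass1, Asl and Arg1 came to 543, 672 and 506 CPM per kilobase in FMT-Con A livers, 1330, 894 and 1170 in Con A livers, and 987, 977 and 975 in WT livers. WT livers were nearly identical, FMT-Con A livers were all lower, and Con A livers lay on both sides of WT. The make-up of the sum also differed between livers. Cps1 supplied 11.5, 14.3 and 11.9% of it in FMT-Con A livers, 26.6, 16.9 and 31.2% in Con A livers, and 11.9, 11.8 and 9.98% in WT livers. Ass1 supplied 40.7, 38.8 and 38.3% in FMT-Con A livers, 31.5, 29.3 and 26.1% in Con A livers, and 30.5, 27.2 and 32.3% in WT livers. The Arg1 to Ass1 ratio was 0.758, 0.794 and 0.842 in FMT-Con A livers, 0.948, 1.32 and 1.32 in Con A livers, and 1.27, 1.55 and 1.2 in WT livers, so that Ass1 exceeded Arg1 in every FMT-Con A liver and in Con A 1. The hepatocyte marker sum in FMT-Con A livers lay below the WT range, like the enzyme sum, and its part in this was not tested.

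**Figure D4:**
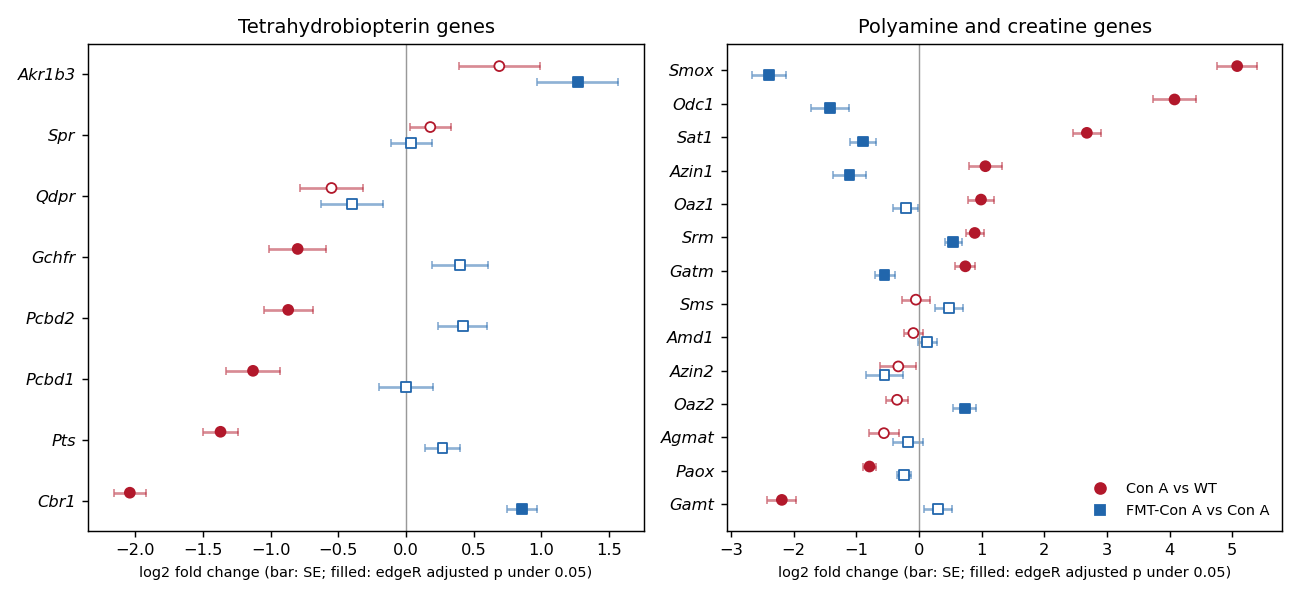
Log2 fold changes of BH4 genes (left) and 14 polyamine and creatine genes (right), in Con A over WT (red circles) and FMT-Con A over Con A (blue squares), with bars of 1 standard error and filled symbols where the edgeR adjusted p is under 0.05. Cbr1 lies at -2.04 and 0.86 in these comparisons, and Smox at 5.08 and -2.39.

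In order of level per kilobase of exon, FMT-Con A livers ran from Ass1 (225 CPM per kilobase) and Arg1 (179), whose libraries overlapped, through Cps1 (72.8), Asl (50.9) and Otc (45.4), the last pair overlapping, to Nags (17.5), Gch1 (6.01), Nos2 (4.48), Arg2 (1.83) and Nos3 (1.31), where Arg2 and Nos3 overlapped. In Con A livers Arg1 (382), Ass1 (329) and Cps1 (290) overlapped at the top. Asl (66.7), Otc (63.9) and Nos2 (59.1) overlapped in the middle, followed by Nags (21.0), Gch1 (12.6), Arg2 (7.04) and Nos3 (0.975). In WT livers the order was Arg1 (390), Ass1 (294), Cps1 (110) with Otc (109) overlapping, Asl (76.8), Nags (12.9), Gch1 (4.54), Arg2 (0.586) with Nos3 (0.481) overlapping, and Nos2 (0.0508). By this measure Nos2 was the least abundant of the 10 in WT livers and reached the level of Otc and Asl in Con A livers. The exon length merges all annotated exons of a gene, 4412 bases for Nos2, 4241 for Otc and 4831 for Asl. It can exceed the length of the transcript made in liver, so the order between genes depends on it. Before division by length, Nos2, Otc and Asl averaged 261, 271 and 322 CPM in Con A livers.

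Among the known inducers of Nos2 and Arg1, 11 of 12 tested rose and none fell in Con A livers against WT, with a median log2 fold change of 2.75, where 32.5% of all genes were called higher. Ifng, the T cell cytokine that drives Nos2, had 15.2 ± 2.95 CPM in Con A livers and 0.168 ± 0.141 CPM in WT livers (log2 fold change 6.49, edgeR adjusted p = 1.33e-06). Rela, a subunit of NF-kappaB, rose by 2.44 and Nfkb1, its partner, by 1.92, while Il4, an inducer of Arg1, did not pass (-0.05). In FMT-Con A livers against Con A, 6 of the 12 fell and none rose, with a median of -1, where 10.6% of all genes were called lower. DESeq2 called 8 lower and 0 higher, and at an unadjusted p under 0.05 it was 9 and 0. Ifng fell to 3.59 ± 0.405 CPM in FMT-Con A livers (-2.09, edgeR adjusted p = 0.00353), Nfkb1 by 1.06 (edgeR adjusted p = 0.00403), Stat6, the mediator of Il4 signalling, by 0.97 (edgeR adjusted p = 0.00546), and Rela by 0.65. Leaving out 1 library at a time left 3 to 6 of the 12 lower. Of the pathway genes outside the 10 named here and in what follows for FMT-Con A against Con A, Ifng, Nfkb1, Stat6, Smox, Pck1 and Cbr1 passed in all 6 such fits. Slc7a2 missed without FMT-Con A 1 (edgeR adjusted p = 0.0516), Nr3c1 without FMT-Con A 1 or 3 (at most 0.0759), and the others without Con A 1, FMT-Con A 1 or FMT-Con A 3 at least, with an edgeR adjusted p of up to 0.16. With FMT-Con A 1 and 3 both left out, Nfkb1 (-1.41, edgeR adjusted p = 0.0303) and Smox (-2.9, edgeR adjusted p = 0.0303) were the 2 genes of all 11 lists that passed in FMT-Con A against Con A, and Ifng was at -2 (edgeR adjusted p = 0.1). With both libraries numbered 2 left out instead, 5 of the 14 genes of ammonia supply and carriage and 5 of the 9 periportal genes were called lower, as were 3 of the 9 pericentral genes, 3 of the 8 regulators, 3 of the 11 synthase partners and 2 of the 7 glutamine, ornithine and proline genes. In that fit 1 of the 12 inducers and 1 of those 7 were higher, and 1 of the 9 further BH4 genes was lower. It called 6048 genes in all, against 2981 of the 17704 tested over all 9 libraries. These list counts thus rose along with the calls over all genes. Against WT, 10 of the 12 rose in FMT-Con A livers, where 31.2% of all genes were called higher. The 8 T and NK cell markers summed to 15.7 to 19.4 CPM in FMT-Con A livers, 29.6 to 58.8 CPM in Con A livers and 6.04 to 7.94 CPM in WT livers. Gzmb, a granule protease of cytotoxic cells, held most of the Con A sum, at 42.3, 39.8 and 22.7 CPM in Con A livers, while Cd4 went the other way, at 1.05 to 1.37 CPM in Con A livers and 2.7 to 3.76 CPM in WT livers. Of the 7 markers tested, 6 rose and 1 fell in Con A against WT, where 32.5% of all genes were called higher and 30.9% lower. In FMT-Con A against Con A, 3 fell and none rose, where 10.6% of all genes were called lower. Their part in the Ifng level was not tested.

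Of 6 genes of arginine, citrulline and glutamine transport, 4 rose and none fell in Con A livers against WT, against 32.5% of all genes higher and 30.9% lower, with a median log2 fold change of 1.15. DESeq2 called 4 higher and 1 lower, as did an unadjusted p under 0.05. Slc7a1, the CAT1 arginine carrier, had 9.58 ± 1.82 CPM in Con A livers and 0.636 ± 0.119 CPM in WT livers (3.9, edgeR adjusted p = 8.39e-07), and Slc3a2, the heavy chain of amino acid exchangers, rose by 1.56. In FMT-Con A livers against Con A, 3 of the 6 fell and none rose, where 10.6% of all genes were called lower, with a median of -0.68, and 4 were lower and 0 higher by DESeq2 (5 and 0 at an unadjusted p under 0.05). Slc7a2, the CAT2 carrier of hepatocytes and macrophages, had 194 ± 50.4 CPM in FMT-Con A livers and 506 ± 133 CPM in Con A livers (-1.38, edgeR adjusted p = 0.00952), and averaged 227 ± 43.8 CPM in WT livers. Slc38a3, a glutamine carrier, fell by 0.83 and Slc3a2 by 0.52, and 0 to 4 of the 6 were lower when 1 library at a time was left out. Against WT, 3 of the 6 rose and 2 fell in FMT-Con A livers, where 31.2% of all genes were called higher and 27.9% lower.

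The polyamine branch consumes the ornithine made by arginase. Of 14 polyamine and creatine genes, 7 rose and 2 fell in Con A livers against WT, against 32.5% of all genes higher and 30.9% lower, with a median of 0.35. The 9 called of 14 were near the 63.4% of all genes. Smox, spermine oxidase, had 49.7 ± 12.4 CPM in Con A livers and 1.46 ± 0.464 CPM in WT livers (5.08, edgeR adjusted p = 1.28e-06). Odc1, the ornithine decarboxylase that opens the branch, rose by 4.08 and Sat1, the polyamine acetyltransferase, by 2.68, while Gamt, which makes creatine, fell by 2.19. Against Con A, 5 of the 14 fell and 2 rose in FMT-Con A livers, with a median of -0.22, against 10.6% of all genes lower and 6.26% higher. Smox had 9.42 ± 2.61 CPM there (-2.39, edgeR adjusted p = 0.00199), Odc1 had 39 ± 1.85 CPM against 105 ± 50.4 CPM (-1.42, edgeR adjusted p = 0.0156), and Sat1 fell by 0.89. Leaving out 1 library at a time left 1 to 5 lower and 0 to 3 higher. Against WT, 5 of the 14 rose and 4 fell in FMT-Con A livers, near the 31.2% of all genes called higher and 27.9% lower.

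Of 14 genes of ammonia supply and mitochondrial carriage, 3 rose and 6 fell in Con A livers against WT, with a median of -0.36, and the 9 called were again near the 63.4% of all genes. Slc25a15, which brings ornithine into mitochondria, rose by 1.33, to 326 ± 125 CPM in Con A livers, against 129 ± 5.66 CPM in WT livers (edgeR adjusted p = 0.00206). It fell by 1.34 in FMT-Con A livers, at 129 ± 38.5 CPM, against Con A (edgeR adjusted p = 0.0146). Gls2, the liver glutaminase that releases ammonia from glutamine, fell by 1.45 in Con A against WT. Car5a, the mitochondrial carbonic anhydrase that supplies bicarbonate to Cps1, fell by 2.2, and Sirt5, which deacylates Cps1, by 1.43. Slc25a13, the aspartate carrier citrin, fell by 0.88 in Con A livers against WT and by 0.88 again in FMT-Con A livers against Con A (edgeR adjusted p = 0.0308). In all, 2 of the 14 fell and 1 rose in FMT-Con A against Con A, with a median of -0.12, near the 16.8% of all genes called. The gene that rose, Slc25a12, is the aspartate carrier of muscle and brain, and had 49.1 ± 27.8 CPM in FMT-Con A livers and 15.9 ± 8.19 CPM in Con A livers, alongside the muscle marker sums. Its log2 fold change was 1.62 over all libraries and 0.08 without FMT-Con A 1 and 3. Without single libraries the counts ran over 0 to 5 lower and 0 to 1 higher. Against WT, 3 of the 14 rose and 6 fell in FMT-Con A livers, where 31.2% of all genes were called higher and 27.9% lower.

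Of 7 glutamine, ornithine and proline genes, 4 rose and 1 fell in Con A livers against WT, against 32.5% of all genes higher and 30.9% lower, with a median of 0.64. In FMT-Con A livers against WT, 3 rose and 2 fell, where 31.2% of all genes were called higher and 27.9% lower. Glul, glutamine synthetase, the pericentral route that captures leftover ammonia, had 1160 ± 133 CPM in Con A livers and 477 ± 12.4 CPM in WT livers (1.28, edgeR adjusted p = 0.000492). Aldh18a1, which makes the proline precursor from glutamate, rose by 3.19 and Oat, ornithine aminotransferase, by 0.84, while Prodh, proline dehydrogenase, fell by 1.64. In FMT-Con A against Con A, 0 of the 7 passed in edgeR's quasi-likelihood test, in DESeq2 or at an unadjusted p under 0.05, with a median of -0.16, and 0 to 1 did in each direction when single libraries were left out. Over all genes 16.8% were called in that comparison.

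Of 7 genes that receive or carry on the nitric oxide signal, 4 fell and Vasp, a target of the cyclic GMP kinase, rose by 1.68 in Con A livers against WT, where 30.9% of all genes were called lower and 32.5% higher. Gucy1a1, a subunit of the soluble guanylate cyclase that binds nitric oxide, had 0.946 ± 0.7 CPM in Con A livers and 5.33 ± 0.73 CPM in WT livers (-2.46, edgeR adjusted p = 0.00151). Gucy1b1 fell by 2.36 and Pde5a, the cyclic GMP phosphodiesterase, by 2.26. Gucy1a2 had 0 counts in all 3 Con A livers and 0.742 ± 0.0977 CPM in WT livers, at least 15.8-fold lower in Con A when 3 counts over the group are taken as the floor. Median log2 fold changes over these 7 were -2.26 for Con A against WT, 0.96 for FMT-Con A against Con A and -1.39 for FMT-Con A against WT, with Gucy1a2 below the median of the first at its bound too. Against Con A, Prkg1, the cyclic GMP kinase that is rich in smooth muscle, had 15.2 ± 11.5 CPM in FMT-Con A livers and 2.4 ± 1.98 CPM in Con A livers (2.65, edgeR adjusted p = 0.0451), beside the muscle marker sums. Without FMT-Con A 1 and 3 the Prkg1 fold was -0.29 (edgeR adjusted p = 0.876). Vasp fell by 0.55 in FMT-Con A livers against Con A. Against WT, 2 of the 7 rose and 4 fell in FMT-Con A livers, where 31.2% of all genes were called higher and 27.9% lower.

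The list of 11 partners and inhibitors of the synthases also held Nos1, itself a synthase. Of these 11, 3 rose and 1 fell in Con A livers against WT, fewer called than the 63.4% of all genes. Nos1ap, an adaptor of neuronal synthase, rose by 2.23, Nostrin, which traffics endothelial synthase, by 1.83, and Prmt1, which makes the methylarginine precursors of endogenous inhibitors, by 1.11. Median log2 fold changes over the 11 were 0.05 for Con A against WT, 0.12 for FMT-Con A against Con A and 0.61 for FMT-Con A against WT. In FMT-Con A against Con A livers, Nostrin fell by 0.76, and Nos1 (4.26, edgeR adjusted p = 0.0416) and Cav1, the caveolar brake on endothelial synthase (2.48, edgeR adjusted p = 0.0351), rose. Cav1 had 9.58 ± 6.33 CPM in FMT-Con A livers and 1.7 ± 0.633 CPM in Con A livers. The 8 endothelial markers summed to 125, 81.2 and 122 CPM in FMT-Con A livers and to 209, 126 and 117 CPM in Con A livers. Their part in Cav1 was not tested. Like Nos1, Cav1 was highest where the muscle marker sums were, in FMT-Con A 1 and 3. Without these libraries the folds were 0.41 for Cav1 (edgeR adjusted p = 0.798) and 0.52 for Nos1 (edgeR adjusted p = 0.896). In all, 2 of the 11 rose and 1 fell in this comparison, where 6.26% of all genes were called higher and 10.6% lower. DESeq2 called 1 of the 11 higher and 2 lower. Leaving out single libraries left 0 to 2 of the 11 higher and 0 to 3 lower. Against WT, 5 of the 11 rose and 2 fell in FMT-Con A livers, where 31.2% of all genes were called higher and 27.9% lower.

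Of 9 regulators of urea cycle transcription, 8 were tested, and 2 rose and 3 fell in Con A livers against WT, with a median of -0.21, near the 32.5% of all genes called higher and 30.9% lower. Gcgr, the glucagon receptor through which fasting raises the cycle enzymes, had 83 ± 9.21 CPM in Con A livers and 501 ± 12.6 CPM in WT livers (-2.59, edgeR adjusted p = 7.43e-07). Cebpb rose by 1.07 and Hnf4a, a hepatocyte transcription factor, by 0.7, while Creb3l3 fell by 0.77. In FMT-Con A against Con A, 1 of the 8 fell and none rose, with a median of -0.2. Over all genes 10.6% were called lower and 6.26% higher there, so the count of falls was near the background. DESeq2 called 2 of the 8 lower and 1 higher. Nr3c1, the glucocorticoid receptor, had 70.3 ± 5.21 CPM in FMT-Con A livers and 105 ± 11.6 CPM in Con A livers (log2 fold change -0.58, edgeR adjusted p = 0.0172). Against WT, 2 rose and 4 fell in FMT-Con A livers, where 31.2% of all genes were called higher and 27.9% lower. Leaving out 1 library at a time left 0 to 2 higher and 4 lower.

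Genes of the periportal zone, where the cycle is richest, were looked at beside those of the pericentral zone. Of 9 periportal genes, 2 rose and 5 fell in Con A livers against WT, with a median of -0.7, and of 9 pericentral genes, 2 rose and 4 fell, with a median of -0.24. Over all genes 32.5% were called higher and 30.9% lower, and the pericentral calls were near the 63.4% called in all. Hal, which breaks down histidine, had 35.9 ± 6.97 CPM in Con A livers and 204 ± 22.5 CPM in WT livers, and G6pc, the last enzyme of glucose release, had 10.2 ± 4.03 CPM in Con A livers and 207 ± 112 CPM in WT livers. On the pericentral side Cyp7a1, which opens the classical route of cholesterol to bile acids, had 0.185 ± 0.0787 CPM in Con A livers and 104 ± 24.3 CPM in WT livers. In FMT-Con A against Con A livers, 2 periportal genes fell and none rose, against 10.6% of all genes lower, with a median of -0.42 (4 lower and 0 higher by DESeq2). Of the pericentral genes 1 rose and none fell, with a median of -0.22 (1 higher and 0 lower by DESeq2), where 6.26% of all genes were called higher. Pck1, the entry enzyme of gluconeogenesis, had 358 ± 114 CPM in FMT-Con A livers and 1220 ± 268 CPM in Con A livers (-1.77, edgeR adjusted p = 0.00501). Against WT, 3 of the 9 periportal genes rose and 6 fell in FMT-Con A livers, and 1 of the 9 pericentral genes rose and 5 fell. Over all genes 31.2% were called higher and 27.9% lower in that comparison. Leaving out 1 library at a time left 0 to 2 periportal genes higher and 6 lower. For the pericentral genes it left 1 higher and 4 to 5 lower. The 2 zones were not tested against each other.

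**Figure D5:**
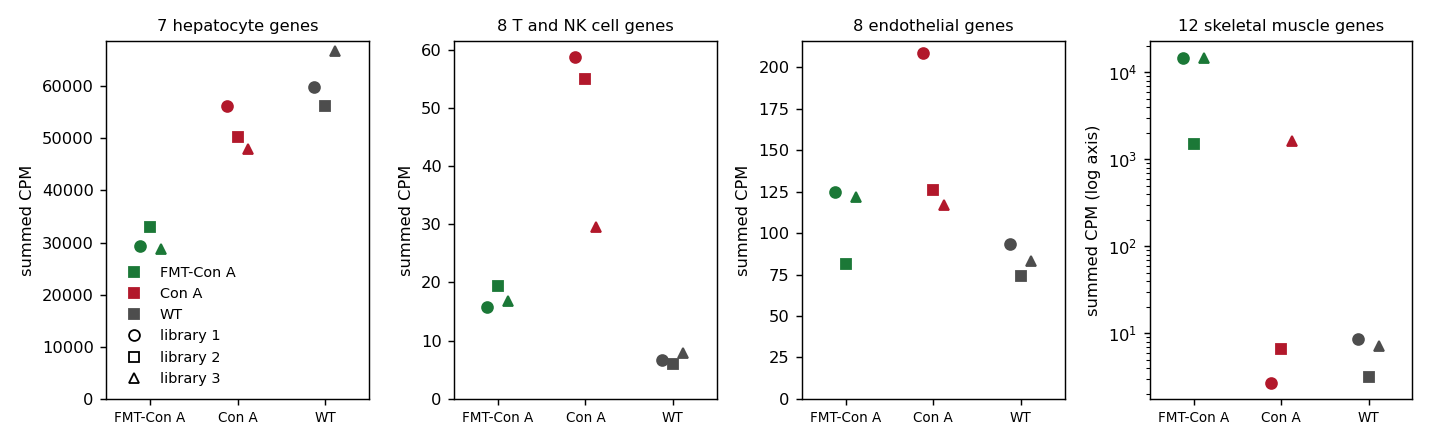
Summed CPM of hepatocyte (7 genes), T and NK cell (8), endothelial (8) and skeletal muscle (12, log axis) markers in the 9 livers, with FMT-Con A, Con A and WT from left to right and 1 point per library. Skeletal muscle markers are high in FMT-Con A 1 and FMT-Con A 3, and the hepatocyte sum is lower in the FMT-Con A livers than in the other 6.

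Genes with the pattern closest to a member over the 9 livers were found by the root mean square distance of centred log2 CPM. Closest to Nos2 was Il1rn, the interleukin 1 receptor antagonist, at a distance of 0.68, with mean levels of 136, 671 and 1.69 CPM in FMT-Con A, Con A and WT livers, followed by Ccrl2 (0.84) and Igfbp1 (0.9). Laptm5 (0.1), Stk38l (0.11) and Tor3a (0.12) came closest to Gch1. Dnmbp (0.12), Slc15a4 (0.13) and Col18a1 (0.14) came closest to Arg1. Col18a1 averaged 274, 514 and 542 CPM in FMT-Con A, Con A and WT livers. Nearest to Cps1 were Ly6e (0.22), at 134, 407 and 181 CPM in FMT-Con A, Con A and WT livers, Gm44851 (0.25) and Gpld1 (0.26). These distances describe the 9 livers and share their group structure.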

How the data were processed

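Liver polyA RNA was sequenced in 9 libraries on an Illumina instrument. The deposited files hold whole-number read counts per gene, not normalized. GRCm38 (mm10), HISAT2, featureCounts and CASAVA are named in the submitters' processing notes. Versions, annotation release, strand setting and treatment of multi-mapping reads are not given in the sources used here. Symbols, positions and exon lengths came from GENCODE vM21 and matched 52083 of 55359 Ensembl identifiers. Numbered models without one, 1360 of 56719, held 1.43 to 1.98% of counts.

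A single edgeR 4.0.16 model (R 4.3.3) took in all 9 libraries, with TMM scaling and filterByExpr (minimum count 10, total 15), which kept 17704 genes. Pairs of groups were compared by the two-sided quasi-likelihood F test with 6 residual degrees of freedom and Benjamini-Hochberg adjustment over all genes. The SE of a log2 fold change is its size divided by the square root of F. CPM is scaled by TMM, and per kilobase values divide by exon length, with all annotated exons of a gene merged. Ratios and orders between genes therefore depend on that length, which can exceed that of the transcript made in liver. Values with ± are mean and SD over 3 libraries. Replicates carry only a number in the labels, so a p-value here reflects only how these libraries vary, which may be technical. Shares and ratios were compared by exact permutation in scipy 1.17.1.

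The 10 genes, the lists and the rule for named genes were chosen with earlier results of these data known. Up to 4 genes of each list with the lowest p in a comparison are named, not every one of them, plus the 3 nearest in pattern to Nos2, Gch1, Arg1 and Cps1. Il4, Alb and Pecam1, Slc25a12, Nos1 and some other list members lie outside that rule and were chosen after their values were seen. The carbonic anhydrase Ca5a was matched under its annotation symbol Car5a. A few list members are counted but not reported here by name. DESeq2 1.42.0, other scaling and filters, a replicate block and left-out libraries were tried as alternatives.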

Additional observations from a re-analysis of the deposited data

How the results depend on the processing

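Con A against WT called 7 of the 10 genes in every alternative. The calls lost among the 10 in the other comparisons are those stated beside them, and in FMT-Con A against WT also Asl (edgeR adjusted p = 0.2) and Nags (0.0767) without FMT-Con A 1 and 3. Reversed signs were confined to folds that did not pass: Ass1 in Con A against WT (-0.05 without Con A 1, within -0.05 to 0.3 over single libraries left out), Arg1 in Con A against WT (0.03 without Con A 2, within -0.07 to 0.03, and 0.04 without both libraries numbered 2), and Nos3 in FMT-Con A against Con A (-0.03 without FMT-Con A 1 and 3).

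The FMT-Con A against Con A comparison depended most on which libraries entered. Over all genes it called 2981, but 1156 with only its 6 libraries fitted and 664 to 4053 with 1 library left out (812 without Con A 1, 664 without FMT-Con A 1, 778 without FMT-Con A 3). Without both libraries numbered 2 it called 6048, and without FMT-Con A 1 and 3 it called 99, when 1 of the 10 genes passed, Nos2. FMT-Con A against WT then called 6957 genes, against 10449. These joint omissions were chosen after seeing the data. With 1 library left out, FMT-Con A against Con A called 4 to 6 of the 10 genes, and FMT-Con A against WT called 5 to 7. Of the other pathway genes named, Oat, Pck1, Hnf4a and Nr3c1 missed the threshold in at least 1 such fit of Con A against WT.

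DESeq2 called 11865, 3938 and 11004 genes and 7, 6 and 7 of the 10 in Con A against WT, FMT-Con A against Con A and FMT-Con A against WT. With only the 6 libraries, Gch1 (edgeR adjusted p = 0.0297) and Cps1 (0.0401) passed in FMT-Con A against WT. With a replicate block the counts were 11093, 2663 and 10207 genes and 7, 5 and 7 of the 10, which changed no call among them. Equal numbers did not pair the livers: same-numbered Con A and FMT-Con A livers correlated at -0.22, 0.25 and 0.34. The causes of these shifts were not tested.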
